A study of Mus musculus with 6 samples.

Results

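The 10 genes described here encode subunits of the sarcomeric thin filament: troponin T (Tnnt1, Tnnt2, Tnnt3), troponin I (Tnni1, Tnni2, Tnni3), troponin C (Tnnc1, Tnnc2) and tropomyosin (Tpm1, Tpm2). They were chosen by name, 10 of 21938 protein-coding genes of GENCODE M21 (mm10), and every peak overlapping a gene body or the 10 kb on either side of it was taken from the 6 peak lists. Accessible DNA, which a transposase can cut, was mapped by Omni-ATAC-Seq in nuclei of mouse hearts at postnatal day 1 (P1), with 50000 nuclei per library and 2 biological replicates in each of 3 groups. All nuclei were first purified through a 2.2 M sucrose cushion. Input nuclei came from wild type (WT) hearts and had no further purification. PCM1 nuclei came from WT hearts and were pulled down by magnet-assisted nuclear immunoprecipitation (MAN-IP) with an antibody to PCM1, a centrosomal protein found around the nuclei of cardiomyocytes. Myc nuclei came from Nkx2-5 Cre/+; R26RSun1-Myc-Egfp/+ hearts and were pulled down by MAN-IP with a Myc antibody. The antibody binds a tagged nuclear envelope protein, made in cells that expressed the Nkx2-5 Cre or descend from cells that did. That lineage is not limited to cardiomyocytes. Genotype and antibody both separate the Myc libraries from the other 4, so their parts in any difference cannot be told apart. Input was taken as an aliquot of cushion-purified nuclei, so an Input and a PCM1 library may share a preparation, which the labels do not give.

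The lists held 131500 and 75336 peaks for Input replicates 1 and 2, 107216 and 108513 for Myc, and 83139 and 81487 for PCM1. The deepest library, Input replicate 1, had 4.38 times the genome-wide background pileup of the shallowest, PCM1 replicate 2. A peak was therefore placed by its rank percentile within its own library, ordered by −log10 q, where 100 is the strongest peak and 0 means that no peak was called. Genes that mark cardiomyocytes were open at their start sites: 12 of 12 such genes had a peak within 1 kb of an annotated start site in all 6 libraries, against 59.7% of all protein-coding genes. Peaks were also called in all 6 libraries at 6 of 8 fibroblast genes, 6 of 6 endothelial genes and 5 of 6 smooth muscle and pericyte genes. Of 9 skeletal muscle genes, 3 had a peak in all 6 libraries: Mylpf (ranks 99.6 to 99.9), Actn3 (92.7 to 97.2) and Cacna1s (81.3 to 92.4). Another 3 had none in any, the myogenic regulators Myf5 and Myog and the myosin gene Myh4. The regulators Myod1, Myf6 and Pax7 had peaks in some libraries, at ranks up to 44.6, 40.6 and 11.9.

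Troponin and tropomyosin make contraction depend on calcium. Troponin C binds calcium, troponin I holds the actin filament off, and troponin T ties the complex to tropomyosin, the coiled coil that lies along actin. Each troponin subunit has isoform genes: Tnnt2 and Tnni3 are the cardiac genes, Tnnc1 serves heart and slow skeletal muscle, Tnnt1 and Tnni1 are the slow skeletal genes, and Tnnt3, Tnni2 and Tnnc2 are the fast skeletal genes. Tnni1 is also the troponin I of the fetal heart, which gives way to Tnni3 around and after birth. Tpm1 is the main tropomyosin gene of cardiac muscle and Tpm2 is best known from skeletal and smooth muscle. Troponin T and troponin I genes lie in pairs in the genome, and the windows of Tnnt1 and Tnni3 (chromosome 7) overlap.

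The start regions of 6 members are shown because the results below turn on whether they were open. They are RefSeq promoter sequences of GRCm38.p6, the build called mm10, read 5′ to 3′ on the strand of the gene and cut back to the bases before the RefSeq start that lie outside annotated UTRs. Capitals mark 5 motifs, searched on both strands. AGATAA is a core bound by the family of GATA factors. CATTCC is the M-CAT element recognised by the family of TEAD factors. CAGCTG is one form of the E-box that basic helix-loop-helix factors bind. AGGTGT is a core recognised by T-box factors. TATAAA is the TATA box of some promoters.
Tnnt2, chr1:135836084-135836333, plus strand: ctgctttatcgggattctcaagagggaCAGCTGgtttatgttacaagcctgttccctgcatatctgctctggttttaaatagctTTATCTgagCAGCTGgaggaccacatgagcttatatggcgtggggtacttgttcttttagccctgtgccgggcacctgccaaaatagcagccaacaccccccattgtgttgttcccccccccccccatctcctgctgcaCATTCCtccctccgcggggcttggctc
Tnni3, chr7:4522529-4522694, minus strand: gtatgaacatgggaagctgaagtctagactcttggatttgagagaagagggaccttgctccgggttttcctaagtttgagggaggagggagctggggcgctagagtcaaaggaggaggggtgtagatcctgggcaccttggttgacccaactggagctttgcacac
Tnnc1, chr14:31208062-31208311, plus strand: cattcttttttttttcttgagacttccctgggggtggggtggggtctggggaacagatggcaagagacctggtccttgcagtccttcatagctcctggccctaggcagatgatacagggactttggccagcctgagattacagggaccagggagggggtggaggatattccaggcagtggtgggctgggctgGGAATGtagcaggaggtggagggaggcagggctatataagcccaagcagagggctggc
Tnni1, chr1:135799171-135799401, plus strand: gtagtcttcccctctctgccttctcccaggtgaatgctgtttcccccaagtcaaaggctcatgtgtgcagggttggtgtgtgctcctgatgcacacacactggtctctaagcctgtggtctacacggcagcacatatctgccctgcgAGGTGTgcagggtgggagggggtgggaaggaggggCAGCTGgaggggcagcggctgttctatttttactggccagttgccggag
Tnnt1, chr7:4516005-4516225, minus strand: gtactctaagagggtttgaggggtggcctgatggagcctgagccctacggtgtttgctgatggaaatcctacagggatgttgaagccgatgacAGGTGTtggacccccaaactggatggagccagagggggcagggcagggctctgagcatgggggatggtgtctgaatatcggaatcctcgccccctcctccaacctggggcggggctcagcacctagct
Tnnc2, chr2:164779742-164779984, minus strand: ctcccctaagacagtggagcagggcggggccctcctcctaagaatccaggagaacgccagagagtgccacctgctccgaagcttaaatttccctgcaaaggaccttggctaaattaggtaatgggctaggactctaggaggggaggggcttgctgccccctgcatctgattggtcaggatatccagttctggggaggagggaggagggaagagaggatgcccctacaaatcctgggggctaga
In Tnnt2 the shown bases held a CATTCC starting at −27 from the RefSeq start, an AGATAA at −166 on the opposite strand and CAGCTG at −157 and −223. Tnnc1 held a CATTCC at −58 on the opposite strand, and Tnni1 a CAGCTG at −68 and an AGGTGT at −103. Tnnt1 held an AGGTGT match, and a TATAAA match began on the last base of its stretch and was cut off there. The stretches of Tnni3, one of the most open starts, and Tnnc2, the member with the weakest peaks, held none of the 5. In the full RefSeq sequences of 300 bases, Tnnc2 again held none, while Tnni3 held an AGGTGT match upstream of the stretch shown. Such matches are common: of 32851 RefSeq promoter sequences of 300 bases, 11.2% held AGATAA, 14.7% CATTCC, 16.3% CAGCTG, 13.7% AGGTGT and 13.6% TATAAA.

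At 2 members the strongest peak near the start lay inside the gene, in the first kilobase or just beyond it, and was stronger than the peak on the start itself. The 300 bases centred on those summits are shown in the same way, on the strand of the gene.
Tnni1, chr1:135800491-135800790, plus strand: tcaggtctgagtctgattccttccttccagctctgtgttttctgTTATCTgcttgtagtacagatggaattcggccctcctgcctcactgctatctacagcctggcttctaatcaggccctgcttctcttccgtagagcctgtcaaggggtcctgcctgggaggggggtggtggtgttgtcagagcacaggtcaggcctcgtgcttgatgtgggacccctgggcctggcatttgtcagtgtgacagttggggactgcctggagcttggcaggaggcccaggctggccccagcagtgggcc
Tnnc1, chr14:31209117-31209416, plus strand: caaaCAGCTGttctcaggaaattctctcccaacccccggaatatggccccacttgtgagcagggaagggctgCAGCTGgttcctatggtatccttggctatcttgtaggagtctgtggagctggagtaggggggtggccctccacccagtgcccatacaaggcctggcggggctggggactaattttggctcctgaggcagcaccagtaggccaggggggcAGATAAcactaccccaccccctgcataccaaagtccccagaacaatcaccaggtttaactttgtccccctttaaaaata
Each holds an AGATAA, on the opposite strand in Tnni1, and the Tnnc1 window also holds CAGCTG at 2 places. Both lie in introns, and neither overlaps an annotated UTR. The Tnnc1 gene itself lies within the annotated bounds of Nisch.

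Once every annotated start was counted, all members but Tnnc2 had a peak within 1 kb of a start in all 6 libraries. The peaks of Tnnt3 and Tnni2 were centred upstream of the start. By the 5′ end of the gene record, 8 of 10 members had a peak within 1 kb in all 6 libraries, against 56.1% of all protein-coding genes. Within 200 bp of that end it was 6 of 10, without Tnnt3 and Tnni2, against 50.8%. Within 1 kb of any annotated protein-coding start it was 9 of 10, against 59.7%. Tnni3 changed between the definitions because its gene record begins 1701 bp upstream of the main (APPRIS principal) start, and for Tnni1 the distance is 19968 bp. Ranks are given by any annotated start unless the 5′ end is named.

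**Figure D1:**
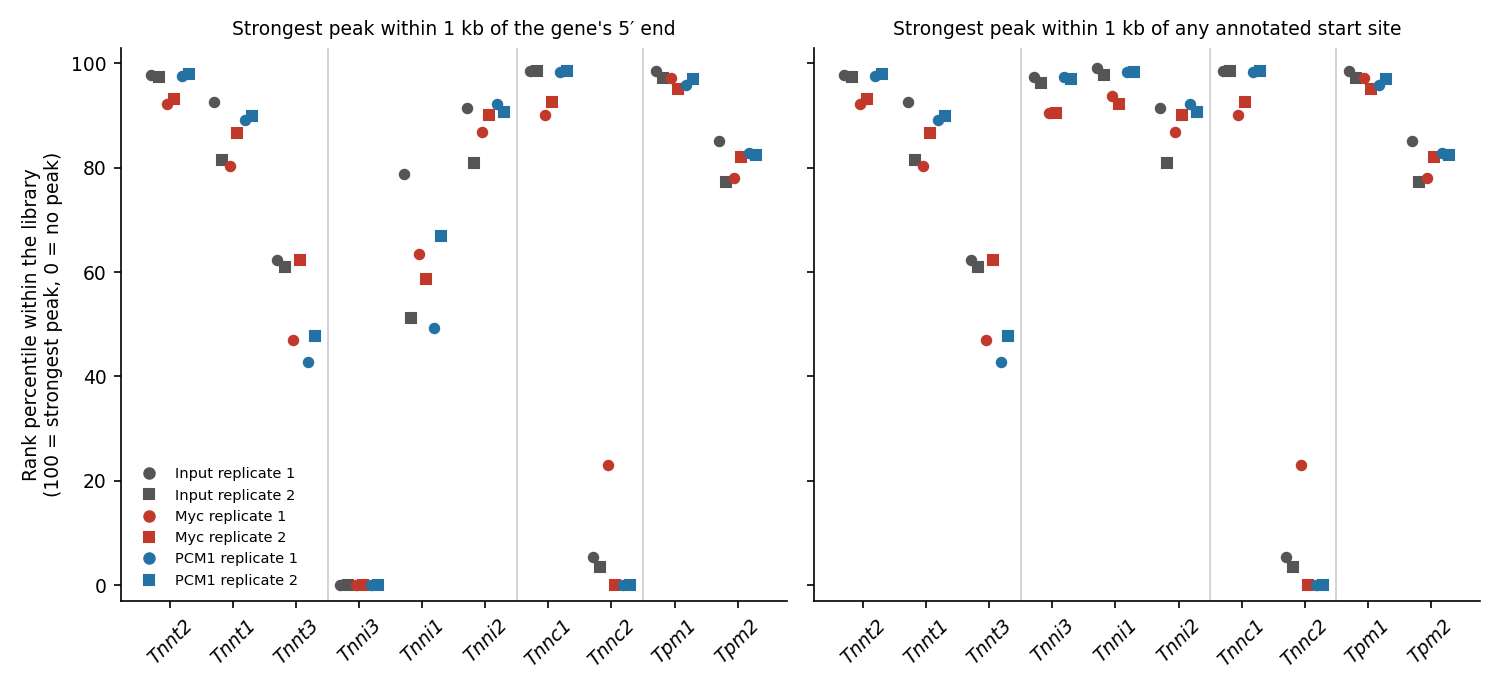
Rank percentile of the strongest peak within 1 kb of the 5′ end of each gene (left) and of any annotated start (right), 1 point per library, coloured by group, with 100 the strongest peak of a library and 0 no peak. Tnni3 moves from 0 on the left to between 90.5 and 97.4 on the right, and Tnnc2 stays at 23.1 or below on both sides.

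Among the troponin T genes the cardiac gene was the most open, the slow gene next and the fast gene the least. Tnnt2 (chr1:135836354-135852260) reached 97.8 and 97.3 (Input), 92.3 and 93.2 (Myc) and 97.7 and 97.9 (PCM1), with summits 215 to 249 bp before its start, inside the promoter shown above. Both Myc values were below the other 4.
Tnnt1 (chr7:4504570-4516382) reached 92.6 and 81.6 (Input), 80.3 and 86.6 (Myc) and 89.1 and 89.98 (PCM1), and the groups overlapped.
Tnnt3 (chr7:142498836-142516009) reached 62.3 and 61.0, 46.9 and 62.4, and 42.8 and 47.7 in the same order. Its peak was centred between −838 and −877 bp from the 5′ end, and no library had a peak within 200 bp of that end. Tnnt2 exceeded Tnnt1 by 9.34 ± 3.88 points (SD, n = 6 libraries) and Tnnt3 by 42.2 ± 9.40, and Tnnt1 exceeded Tnnt3 by 32.9 ± 10.005. Each difference had the same sign in 6 of 6 libraries. The exact two-sided sign-flip permutation test gave p = 0.03125 for each, the smallest value 6 libraries allow, and 0.03125 after Benjamini-Hochberg adjustment over 8 paralog pairs. With peaks ranked by fold enrichment, Tnnt1 and Tnnt3 differed by 19.8 points and the exact p was 0.0625.

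Of the troponin I genes, the fetal and slow gene Tnni1 and the cardiac gene Tnni3 were both near the top of every library. Tnni3 (chr7:4518305-4524229) reached 97.4 and 96.3 (Input), 90.5 and 90.6 (Myc) and 97.3 and 97.0 (PCM1), with summits within 58 bp of its main start. Both Myc values were again the lowest.
Tnni1 (chr1:135779434-135810989) reached 99.1 and 97.7 (Input), 93.7 and 92.1 (Myc) and 98.3 and 98.4 (PCM1). Those summits lay 752 to 891 bp downstream of the nearest annotated start, in the intronic window shown above. That start lies downstream of the main start. A second region, with its summit 27 bp before the main start, ranked 92.2 and 84.3, 77.6 and 80.1, and 90.7 and 86.6 in the same order. At the 5′ end of the Tnni1 record, which GENCODE gives to a transcript without a coding sequence, the ranks were lower and mixed: 78.8 and 51.2 (Input), 63.5 and 58.7 (Myc) and 49.4 and 66.9 (PCM1).
Tnni2 (chr7:142441808-142444410), the fast gene, reached 91.4 and 80.9, 86.9 and 90.1, and 92.2 and 90.7. The summit of that peak was at −1026 to −1065 bp from the start, outside the 1 kb window, and only the downstream part of the peak fell within it. No library had a peak within 200 bp of the start. Its fold enrichment over local background was 11.8 to 15.7, and that of Tnnt2, which ranked higher in every library, was 8.08 to 11.8.

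The order of the troponin I genes depended on which start was counted and on how peaks were ranked. By any annotated start, Tnni1 exceeded Tnni3 by a small margin (Tnni3 minus Tnni1, −1.70 ± 0.78 points), Tnni3 exceeded Tnni2 by 6.16 ± 5.01 and Tnni1 exceeded Tnni2 by 7.85 ± 4.85 (SD, n = 6 libraries). By the 5′ end, Tnni3 minus Tnni1 was −61.4 ± 10.9, Tnni3 minus Tnni2 was −88.7 ± 4.22 and Tnni1 minus Tnni2 was −27.3 ± 10.1, so that the last pair of differences turned direction. Each of the 3 differences by any annotated start, and Tnni1 minus Tnni2 by the 5′ end, had the same sign in 6 of 6 libraries and an exact sign-flip permutation p of 0.03125. For Tnni3 by the 5′ end no test is read, since it had no peak there in any library and the sign was fixed. Ranked by fold enrichment at any annotated start, Tnni3 minus Tnni2 was −15.5 (exact p = 0.03125), Tnni1 minus Tnni2 was −11.1 (exact p = 0.0625) and Tnni3 minus Tnni1 was −4.37 (exact p = 0.1875). The place of Tnni2 below Tnni3 and Tnni1 thus held by −log10 q at any annotated start and turned by fold enrichment, where Tnni2 was the higher.

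The troponin C genes lay far apart. Tnnc1 (chr14:31208312-31211729), the only troponin C gene known from the heart, reached 98.6 and 98.5 (Input), 90.2 and 92.6 (Myc) and 98.3 and 98.5 (PCM1). The summit of that peak lay 954 to 1030 bp into the gene, while the peak on its start, 3 bp from it, ranked 82.8 and 64.2, 73.6 and 68.9, and 80.3 and 80.6.
Tnnc2 (chr2:164777161-164779967), its fast skeletal counterpart, had a weak peak in 3 libraries, at 5.34 and 3.50 in Input and 23.1 in Myc replicate 1, and none in Myc replicate 2 or in PCM1. Its summit pileup was 17, 8 and 13 tags in those 3 libraries. Tnnc1 exceeded Tnnc2 by 90.8 ± 11.9 points in 6 of 6 libraries (exact sign-flip permutation p = 0.03125, adjusted 0.03125). The sign was fixed in Myc replicate 2 and in the PCM1 libraries, where Tnnc2 had no peak, so the p-value rests partly on that. With a start window of 200 bp Tnnc1 minus Tnnc2 was 75.1, and Tnnt2 minus Tnnt3 and Tnnt1 minus Tnnt3, with no peak at Tnnt3, were 96.0 and 86.7. The other 2 regions of the Tnnc2 window, both called in all 6 libraries with ranks of 96.4 and above, were the promoters of its neighbours Ube2c and Snx21.

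Both tropomyosin genes were open in every library. Tpm1 (chr9:67022590-67049406) reached 98.5 and 97.1 (Input), 97.1 and 95.0 (Myc) and 95.9 and 97.0 (PCM1). Both Input values were the highest, the lower of them at 97.146 beside 97.139 in Myc replicate 1, and Myc and PCM1 overlapped. Its inner promoter, 5467 bp downstream, also ranked high, at 94.2 and 91.0, 94.5 and 93.8, and 88.3 and 90.2, with both PCM1 ranks the lowest. That order held by rank only. Its summit pileup over the genome-wide background, a measure described below, was 120 and 130, 154 and 148, and 140 and 151. Both PCM1 pileups were thus above both Input pileups.
Tpm2 (chr4:43514711-43523765) reached 85.2 and 77.2, 78.1 and 82.1, and 82.9 and 82.4, again with overlap. Tpm1 exceeded Tpm2 by 15.5 ± 3.19 points in 6 of 6 libraries (exact sign-flip permutation p = 0.03125, adjusted 0.03125). By fold enrichment the difference was 10.6 and the exact p was 0.0625. In the order of the mean rank over the 6 libraries, Tpm1 (96.8), Tnni1 (96.6), Tnnc1 (96.1), Tnnt2 (96.0) and Tnni3 (94.9) came first and their ranges overlapped, followed by Tnni2 (88.7), Tnnt1 (86.7) and Tpm2 (81.3), whose ranges also overlapped. The range of Tnnt1 also reached into those of Tnni1, Tnnc1, Tnnt2 and Tnni3, and that of Tnni2 into those of Tnni1, Tnnc1 and Tnni3. Neither reached that of Tpm1. Last came Tnnt3 (53.8) and Tnnc2 (5.32), whose ranges overlapped with no other.

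The cardiac troponin genes and Tnni1 were less prominent in the Myc libraries than in the other 4. Both Myc ranks were below all others for 2 of 10 members by the 5′ end (Tnnt2, Tnnc1), against 2.4% of all genes, and for 4 of 10 by any annotated start (Tnnt2, Tnni3, Tnni1, Tnnc1), against 2.79%. No member had both Myc ranks above the others, which was the case for 19.2% of genes by the 5′ end and 19.6% by any start. None had both PCM1 ranks below the others, against 20.9% and 21.8%. With 2 libraries against 4, an exact permutation test cannot go below a one-sided p of 0.0667. The groups were not tested, and these orders are descriptions. Without Input replicate 2, the shallower Input library, the count by the 5′ end rose from 2 to 5 (Tnnt2, Tnnt1, Tnni2, Tnnc1, Tpm2), against 4.59% of genes.

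The same order was seen in the height of the peaks. Summit pileup was recovered from the fold enrichment and p-value of each peak and divided by the genome-wide background of its library, a scale that depends on that background. At Tnnt2 it was 199 and 227 times background (Input), 127 and 141 (Myc) and 249 and 280 (PCM1). The mean of the Myc libraries was 0.562 of the mean of the other 4 at Tnnt2, 0.553 at Tnni3, 0.480 at Tnni1 and 0.472 at Tnnc1. The ratio was 0.7998 at Tpm1, where both Myc values were also the lowest, and 0.698 at Tnnt1. At Tnnt3, Tnni2 and Tpm2 it was 0.916, 0.873 and 0.919, with both Myc values inside the range of the others. PCM1 gave the highest mean at each of the 9 members with a peak in all libraries. Its mean was 264 at Tnnt2 beside 213 in Input, and 214 at Tpm1 beside 212 in Input. No such count was made over all genes. The median ratio of PCM1 to Input was 1.26 over the 43 window regions called in every library and 1.06 over all 48861 such regions. Among those with a mean rank over 90 it was 1.06 over 12 window regions and 0.971 over 8792 in all. The local background that the peak caller used was also high around the most open members, at 15.1 to 31.3 times the genome-wide background at Tnnt2 and 12.9 to 28.9 at Tnni1, against 3.05 to 5.71 at Tnnt3 and 1.15 to 1.36 at Tnnc2.

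**Figure D2:**
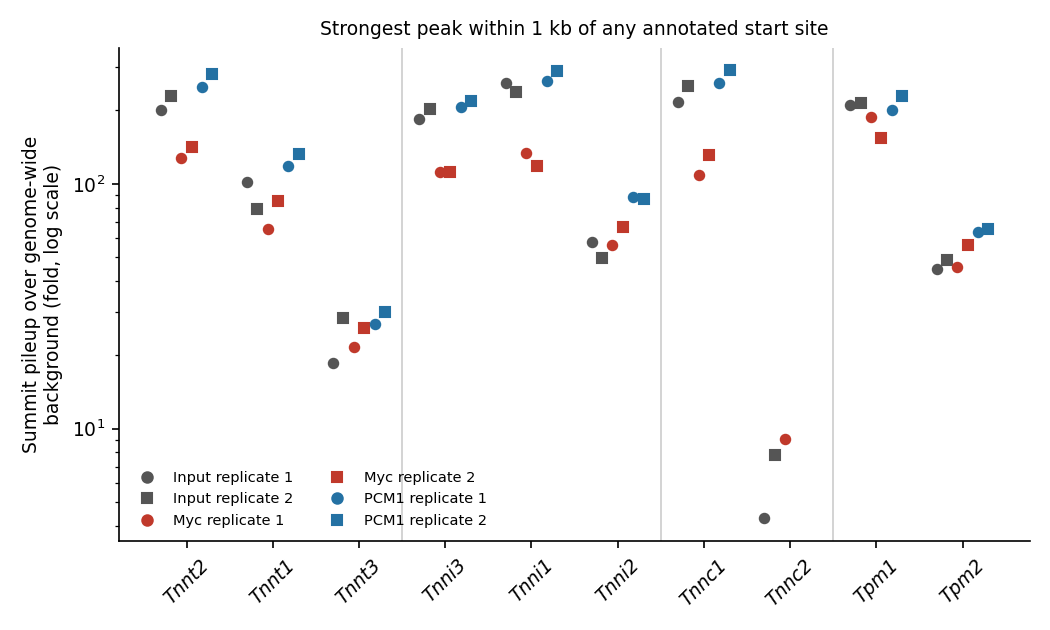
Summit pileup of the strongest peak within 1 kb of any annotated start, divided by the genome-wide background of the library, on a log axis with 1 point per library. The Myc points at Tnnt2, Tnni3, Tnni1 and Tnnc1 lie between 109 and 141, below the Input and PCM1 points, while at Tnnt3, Tnni2 and Tpm2 they lie among them.

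Other measures also differed between libraries, within the Input group as well as between groups. Over the 12 cardiomyocyte genes the median rank by any annotated start was 94.6 and 91.7 (Input), 88.2 and 89.5 (Myc) and 92.3 and 90.6 (PCM1). Both Myc ranks were the lowest at 6 genes, against 2.79% of all genes, and both PCM1 ranks at 2, against 21.8%. By the 5′ end the medians were 90.1 and 85.2, 86.5 and 88.4, and 83.6 and 85.9. Both Myc ranks were the lowest at 4 genes, against 2.4% of all genes, and both PCM1 ranks at 2, against 20.9%. The medians that follow are by the 5′ end. Over the 8 fibroblast genes it was 74.6 and 50.2, 69.1 and 69.3, and 48.0 and 41.4, over the 6 endothelial genes 71.0 and 37.3, 75.1 and 78.1, and 47.6 and 58.4, and over the 6 smooth muscle and pericyte genes 75.6 and 53.6, 71.3 and 70.4, and 68.7 and 41.3. Myc and Input replicate 1 were high in these lists. Over all protein-coding genes the median was 77.8 and 57.8, 74.8 and 74.0, and 57.4 and 55.9, in the same order. The part of cell composition, and of depth, in the order at the troponin genes was not tested.

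Over their whole length, the 10 windows held 72 and 62 peaks (Input), 70 and 67 (Myc) and 63 and 60 (PCM1). The median member had 1.89 to 2.33 peaks per 10 kb, against a median of 0.478 to 0.811 over all genes. Merged over the libraries, the peaks formed 80 regions, of which 43 (53.8%) were called in all 6 libraries, against 28.8% of the 169881 regions of the whole series, and 11 (13.8%) in 1 library, against 30.4%. Tnni1 had the most, 17, followed by 12 for Tpm1 and 11 each for Tnnt2 and Tnnt3, and 5 were shared by the Tnnt1 and Tnni3 windows. None of the 80 was called in both libraries of a single group and nowhere else, a pattern found for 1.08% of all regions with Input, 1.84% with Myc and 0.254% with PCM1. The start site nearest to the summit belonged to another gene in 21 of the 80 regions.

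**Figure D3:**
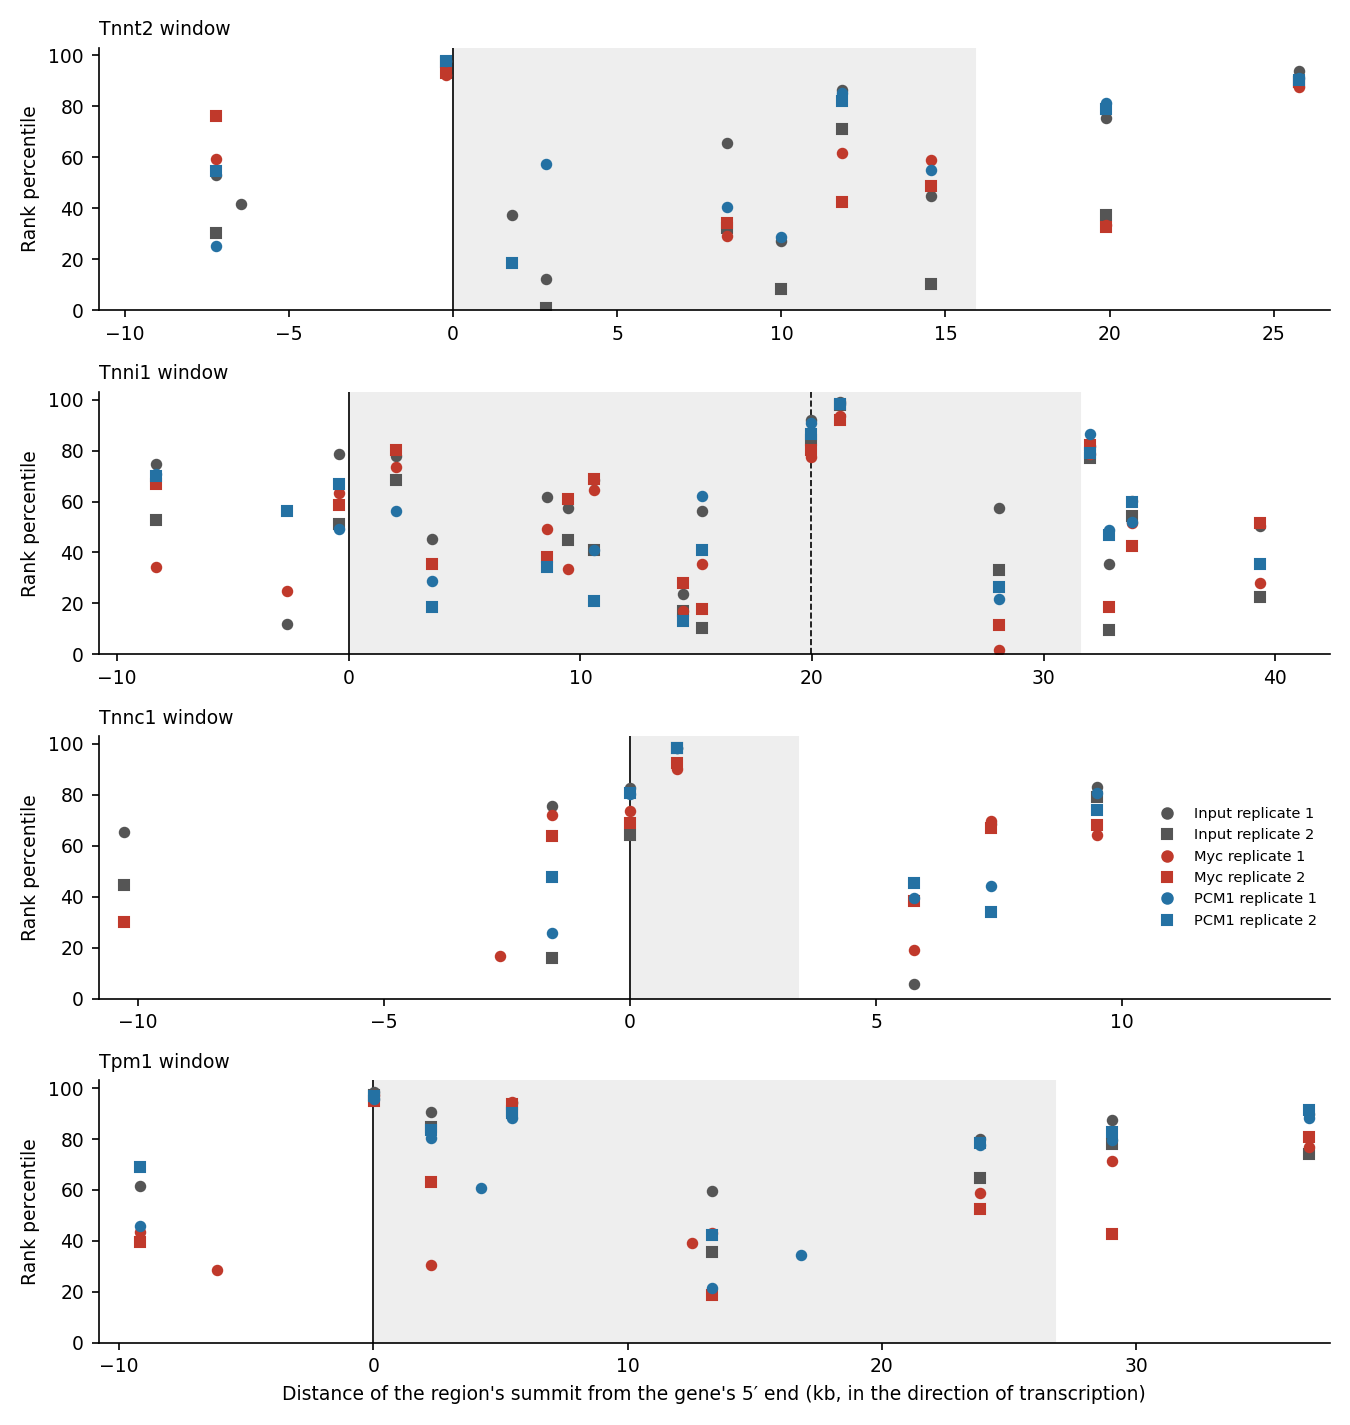
Regions in the windows of Tnnt2, Tnni1, Tnnc1 and Tpm1, by the distance of the summit from the 5′ end of the gene and the rank percentile in each library that called them, with the gene body shaded, the 5′ end as a solid line and the main start of Tnni1, 19968 bp downstream, as a dashed line. The highest ranks stand at the starts of Tnnt2 and Tpm1 and just inside the downstream start of Tnni1 and the start of Tnnc1.

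Other open regions lay inside and beside the genes. In the Tnnt2 window a region 25762 bp downstream of the start, past the end of the gene, ranked 94.01 and 89.4 (Input), 87.8 and 89.4 (Myc) and 90.9 and 90.2 (PCM1). An intronic region of Tnnt2 11841 bp from the start ranked 86.5 and 71.1, 61.6 and 42.5, and 85.2 and 82.2, with both Myc values the lowest and a Myc pileup 0.427 of the mean of the others. In Tnnt1 an intronic region 6187 bp from the start ranked 96.3 and 93.1, 94.2 and 93.2, and 91.1 and 94.0, above the peak at the Tnnt1 start in every library. An intronic region of Tpm1 2282 bp from its start ranked 90.5 and 84.9, 30.6 and 63.1, and 80.5 and 83.7, where the Myc libraries were far below the rest.

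Over the 43 regions called in every library, both Myc ranks were below the other 4 in 14 (32.6%), against 7.88% of the 48861 such regions in the whole series. With equal numbers of peaks per library it was 19 of 40, against 19.1%. Both were above in 2, against 15.7%. Both PCM1 ranks were below in 7 (16.3%), against 20.6%, and above in 1, against 3.25%. By pileup over genome-wide background, both Myc libraries were lower in 17 of the 43 (39.5%), against 13.5%, and higher in 4 (9.3%), against 24.7%. The median ratio of Myc to the other libraries was 0.687 over the 31 regions whose nearest start belongs to a member and 1.01 over the 12 nearest to another gene, beside 1.06 over all regions. By rank the sets were less far apart, with both Myc libraries the lowest in 11 of the 31 (35.5%) and 3 of the 12 (25%). Among regions with a mean rank over 90, the median ratio was 0.87 over 12 regions of the windows and 1.04 over 8792 regions in all. By pileup, both Myc libraries were lower in 6 of those 12 (50%), against 23.7%, and higher in 2 (16.7%), against 30.2%. Without Input replicate 2 the count with both Myc ranks below rose to 24 of 46 regions, against 15.2%.

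**Figure D4:**
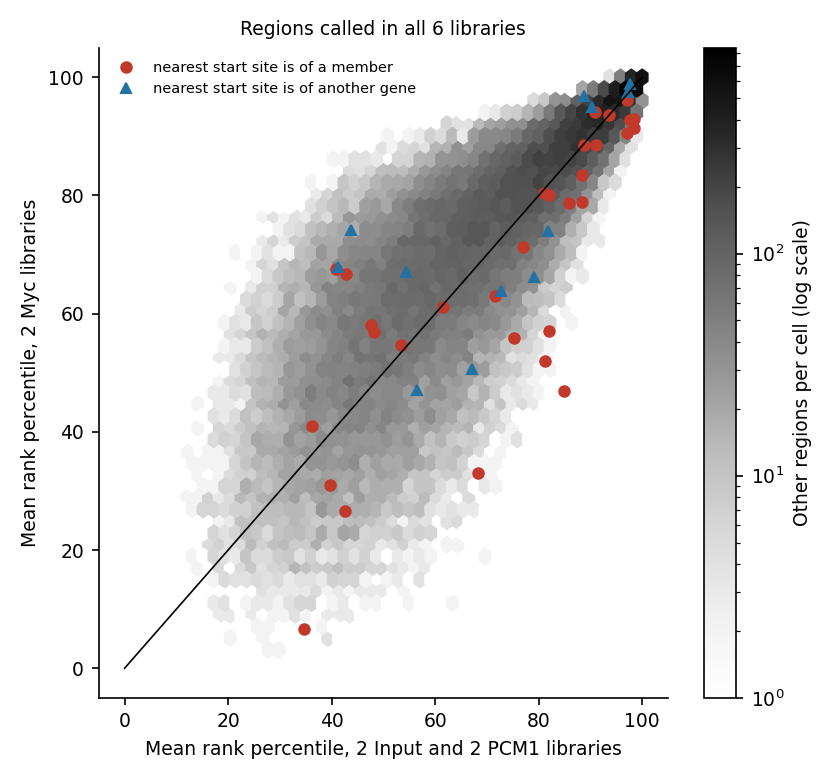
Mean rank percentile in the 2 Myc libraries against that in the 2 Input and 2 PCM1 libraries for regions called in all 6, with 43 regions of the windows as symbols over the density of all others (grey, log scale) and the line of equal ranks. Of the 43, 14 had both Myc ranks below the other 4 and 2 had both above.

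Of 12 other thin filament genes, 9 had a peak at the 5′ end in all 6 libraries, against 56.1% of all genes, and both Myc ranks were below the other 4 at 3 of them, the cardiac actin Actc1, the skeletal actin Acta1 and the leiomodin Lmod2, against 2.4%. Tpm3, a slow muscle and cytoskeletal tropomyosin, ranked 0.00837 or no peak by the 5′ end and 95.6 to 99.1 by any annotated start. Of 7 cardiac thick filament genes, both Myc ranks were the lowest at 4 by the 5′ end, Myh6, Myh7, Myl2 and Mybpc3, against 2.4% of all genes. Both were the highest at 1, the atrial light chain gene Myl4, against 19.2%. Of 8 fast skeletal sarcomere genes, 4 had a peak at the 5′ end in all 6 libraries (Mylpf, Actn3, Mybpc2, Myh8) and 4 in none, the fast myosin heavy chains Myh1, Myh2 and Myh4 and the light chain Myl1. Tnnt3 and Tnni2 had a peak in all 6 libraries and Tnnc2 in 3.

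Motifs in the peaks were close to the background. In 300 bases around the summit, 8 of the 43 regions called in all 6 libraries held AGATAA (18.6%, against 14.2% of all such regions), 6 held CATTCC (14%, against 19.4%), 10 held CAGCTG (23.3%, against 26.6%) 5 held AGGTGT (11.6%, against 11.7%) and 4 held TATAAA (9.3%, against 9.89%). An NKX element was found in 1 of the 43, against 6.77%, a MEF2 element, which can overlap TATAAA, in 1, against 6.03%, and a CArG box in 1, against 1.7%.

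By the mean absolute difference in rank at the 5′ end over the 6 libraries, the genes most like Tnnt2 outside the list were Mknk2 (0.428 points), Slc25a34 (0.591) and Klc2 (0.716). Those most like Tnni1 at its 5′ end were Ccnd1 (3.31), Mfap4 (3.43) and Cd36 (3.52).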

How the data were processed

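Omni-ATAC-Seq libraries were analysed from the peak lists that the authors deposited, 1 per library. Per the methods and labels, the authors trimmed reads, mapped them to mm10 with Bowtie2 2.3.3.1, marked duplicates with Picard 2.2.1, removed blacklisted regions with bedtools 2.7.1, shifted reads for the transposase and called peaks with MACS2 2.1.0.20160309 at a q-value of 0.05. The deposited columns hold a score, the fold enrichment (a ratio) at the summit, −log10 p, −log10 q and the summit offset, with no read totals. Here peaks were ranked within each library by −log10 q, and the strongest peak within 1 kb of a GENCODE M21 start was taken (0 where none). Peaks overlapping by 1 bp or more were merged into regions. Summit pileup was recovered from fold and p-value, and 99.998% or more of the peaks in each library gave a whole number within 0.02. Paralogs were compared by an exact two-sided sign-flip permutation test over the 6 libraries, which treats each library as an independent unit across groups, although Input and PCM1 libraries may share preparations. Groups of 2 libraries were not tested: an exact permutation test of 2 against 2 cannot go below a two-sided p of 0.333. Intervals are not given because read totals are unknown. All 10 members are named, in classes by isoform, and the genes most like Tnnt2 and Tnni1 are the 3 with the smallest mean absolute rank difference. The members and lists were chosen with earlier results of these data known. Promoters came from RefSeq (GRCm38.p6), with 10 entries for 8 of the 10 members and none for Tnnt3 and Tnni2. Alternatives were a q-value of 0.01, equal peak numbers, start windows of 200 bp and 2 kb, any annotated start, ranking by fold, a 2 kb flank and leaving out each library. Scripts were tested on simulated data and run with numpy 2.4.6, pandas 2.3.3, scipy 1.17.1 and matplotlib 3.10.9 under Python 3.11.15.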

Additional observations from a re-analysis of the deposited data

How the results depend on the processing

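Rank differences between paralogs turned direction for troponin I only: Tnni3 minus Tnni1 was 24.1 with a 2 kb start window, Tnni3 minus Tnni2 was 6.16 with a 2 kb window or any annotated start (7.37 with equal peak numbers as well), and Tnni1 minus Tnni2 was 61.4 with a 200 bp window, 7.85 with any annotated start and 9.65 with equal peak numbers as well. With a 200 bp window Tnnt2 minus Tnnt3 was 96.0, Tnnt1 minus Tnnt3 86.7 and Tnnc1 minus Tnnc2 75.1, and Tnni3 minus Tnni2 was 0, since neither had a peak. Ranked by fold, Tnnt1 minus Tnnt3 (19.8) and Tpm1 minus Tpm2 (10.6) had an exact permutation p of 0.0625, with the 5′ end or any start. Ranked by fold at any start, Tnni3 minus Tnni1 was −4.37, Tnni1 minus Tnni2 −11.1 and Tnni3 minus Tnni2 −15.5, the last of the same sign as at the 5′ end and opposite to any start ranked by −log10 q. Leaving out 1 library, 5 libraries cannot go below an exact p of 0.0625, and the differences by the 5′ end ran from 8.06 to 10.2 (Tnnt2 minus Tnnt1), 39.7 to 44.5 (Tnnt2 minus Tnnt3), 30.2 to 35.3 (Tnnt1 minus Tnnt3), −63.8 to −57.9 (Tnni3 minus Tnni1), −90.3 to −88.0 (Tnni3 minus Tnni2), −30.3 to −24.2 (Tnni1 minus Tnni2), 89.2 to 95.5 (Tnnc1 minus Tnnc2) and 14.6 to 16.0 (Tpm1 minus Tpm2). The count of members with both Myc ranks lowest was 1 with a 200 bp window (2.12% of all genes), 4 with any annotated start (2.79%), 5 with any start and equal peak numbers (6.37%) or fold ranks (5.56%), and 2 to 5 with a library left out (2.42% to 4.59%). The windows held 394 peaks over the 6 libraries and 243 with a 2 kb flank. Regions with both Myc ranks lowest numbered 8 of 32 where a peak had to cover at least 0.5 of the region (9.14% of all regions), 19 of 40 with equal peak numbers (19.1%) and 14 to 24 with a library left out (7.93% to 15.2%). Combinations with any start, all alternatives for these regions and leaving out a library for the Myc count were added after the data were seen. No paired analysis was possible because the groups were not compared by a test, so no fit could take the replicate number as a block. The paralog differences are paired within libraries. Peaks missing in a shallower library may lie under its threshold.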

Other observations

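2 regions of the Tnnt1 and Tnni3 windows went the other way from the cardiac troponin starts. The promoter of Ppp1r12c, a myosin phosphatase subunit gene beside Tnnt1, ranked 95.4 and 90.1 (Input), 96.6 and 97 (Myc) and 85.8 and 83.6 (PCM1), so both Myc values were the highest and both PCM1 values the lowest. A region over an exon of Dnaaf3, an assembly factor gene for ciliary dynein beside Tnni3, ranked 83.6 and 59.6 (Input) and 85.7 and 85.4 (Myc) and was not called in either PCM1 library. Beyond the end of Tnnt3, a region 24953 bp from its 5′ end ranked 46.6 and 14.7 (Input) and 66.95 and 65.2 (Myc) and was likewise not called in PCM1. These regions were chosen after their values were seen, and the groups were not compared by a test.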
